A study of Clio pyramidata with 8 samples.

Results

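Of the 27393 transcripts listed for the shelled pteropod Clio pyramidata, 200 are described here that stood lower in every animal kept at 800 ppm CO2 than in every animal kept at 380 ppm. They were chosen by value. Averaged over the 8 animals, 19379 transcripts reached at least 1 FPKM. Of these, 506 (2.61%) had their highest value at 800 ppm below their lowest value at 380 ppm, and the 200 with the widest gap between these 2 values were taken. FPKM are fragments scaled to transcript length and to the size of the library, and the gap is the log2 of the lowest 380 ppm value plus 1 minus the log2 of the highest 800 ppm value plus 1. The opposite arrangement, with every 800 ppm animal above every 380 ppm animal, was found in 191 transcripts (0.986%). This balance turned with the scaling and with D: it was 86 lower and 252 higher with libraries rescaled to the same sum, 186 and 219 with the same sum after removing the 10 most abundant transcripts of each, and 709 and 778 without D. Because the contrast of the CO2 levels chose the members, their differences between levels are given as a description and carry no test. With 1 animal left out, fewer animals must separate, so a higher count follows in part from the rule. The count of 506 was then 1405 without E, 958 without H, 849 without C and 827 without B. It lay between 532 and 709 without any 1 of the other 4.

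Messenger RNA was measured in whole bodies, removed from the shell, of 8 adult animals from the wild, 1 library per animal. After at least 8 h of acclimation at 15 °C, each animal spent 9 to 11 h alone in a 20 mL chamber of filtered seawater with streptomycin and ampicillin (25 mg per L each). For animals A, B, C and D the water had been bubbled with a gas mixture holding 800 ppm CO2, and for E, F, G and H with ambient air at about 380 ppm. RNA was extracted with either of a pair of reagents, and the labels do not assign them to animals. In whole-body RNA, fewer cells of a type and less RNA per cell cannot be told apart.

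Pteropods, or sea butterflies, are planktonic snails that swim with wings formed from the foot. Thecosomes such as Clio build a thin shell of aragonite, a form of calcium carbonate that dissolves readily. Dissolved CO2 lowers the pH of seawater and its content of carbonate ions, which is why the group is studied for its response to ocean acidification. The deposited table names its transcripts by identifier alone, so no gene, function, length or sequence is given for any member, and the tissue could not be checked against marker genes.

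Libraries D and E stood apart from the other 6 before any transcript was chosen. Of the 19379 kept transcripts, 14.0% were listed at 0 in D. The share was 8.51% in E and lay between 0.485% and 2.37% in the others. The single most abundant transcript held 65.8% of summed FPKM in D, 58.7% in E and 13.7% to 40.4% elsewhere. The low values were fitted to steps that are whole multiples of 1 fragment. This fit put the number of fragments behind 1 unit of FPKM at 25.0% of that in G for D and 21.5% for E. It was 45.7% to 67.8% for A, B, C, F and H. One fragment of a low transcript was typically worth 0.252 FPKM in E, 0.217 FPKM in D and 0.0542 FPKM in G. Over all kept transcripts the median level was 1.99 FPKM in D, 2.75 FPKM in E and 3.27 to 3.7 FPKM in the other 6.

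The 200 transcripts were of ordinary abundance. Their mean level over the 8 animals had a median of 3.96 FPKM, beside 3.93 FPKM for all kept transcripts, and ran from 1.01 to 116 FPKM. By level, 40 members had a mean under 2 FPKM, 74 one from 2 to 5, 76 one from 5 to 20 and 10 one of 20 or more. The share of transcripts that met the rule was 2.65%, 2.90%, 2.77% and 1.68% in these classes, so the arrangement was not limited to low levels. The median of the 200 values was 1.20, 1.66, 1.83 and 1.5 FPKM in A to D. It was 5.25, 8.83, 6.67 and 4.39 FPKM in E to H. The median member was thus below the median of all kept transcripts in each 800 ppm animal and above it in each 380 ppm animal, which the choice of members favours.

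**Figure D1:**
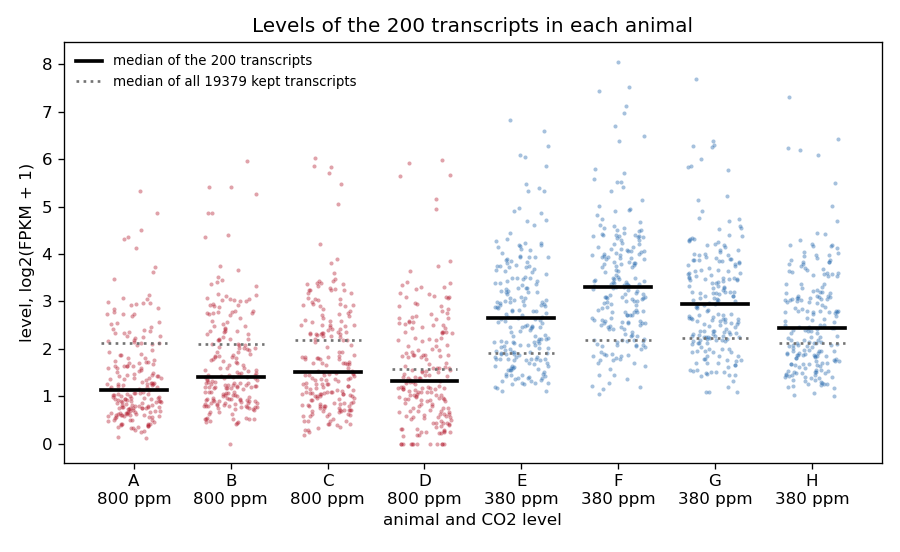
Each point is 1 of the 200 transcripts in 1 animal, on the scale of log2(FPKM + 1), with animals at 800 ppm CO2 in red and at 380 ppm in blue. Solid bars mark the median of the 200, from 1.20 to 1.83 FPKM at 800 ppm and from 4.39 to 8.83 FPKM at 380 ppm, and dotted bars the median of all kept transcripts.

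Few members were silent at 800 ppm. A value of 0 was listed for 12 members, in D for each of the 12 and in B for 1 of them. Values under 1 FPKM were found for 89, 56, 52 and 73 members in A to D, and 30 members were under 1 FPKM in all 4. At 380 ppm the lowest value of any member was 1 FPKM. A single member, GAWL01000181, was under 0.5 FPKM in every 800 ppm animal. It stood at 0.47, 0.44, 0.33 and 0 FPKM in A to D, and at 1.16, 3.23, 1.79 and 1.81 FPKM in E to H. The gap of this transcript lay between A and E and came to 0.56 on the log2 scale.

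The members differed between the CO2 levels by a median log2 difference of group means of 1.28, beside 0.10 over all kept transcripts, on the scale of log2(FPKM + 1). In FPKM, the mean at 380 ppm was a median of 3.66 times the mean at 800 ppm, with a range of 1.78 to 12.6, beside 1.16 for all kept transcripts. The log2 difference was at least 2 for 8 members, between 1 and 2 for 160 and under 1 for 32. A log2 difference of at least 1 was also reached by 1019 of all kept transcripts (5.26%), most of which did not separate the animals. The gap between the nearest animals was much narrower than the difference of means. Its median was 0.40, and it was at least 1 for 7 members, between 0.5 and 1 for 52 and under 0.5 for 141. For 29 members the lowest 380 ppm animal had at least 2 times the FPKM of the highest 800 ppm animal.

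**Figure D2:**
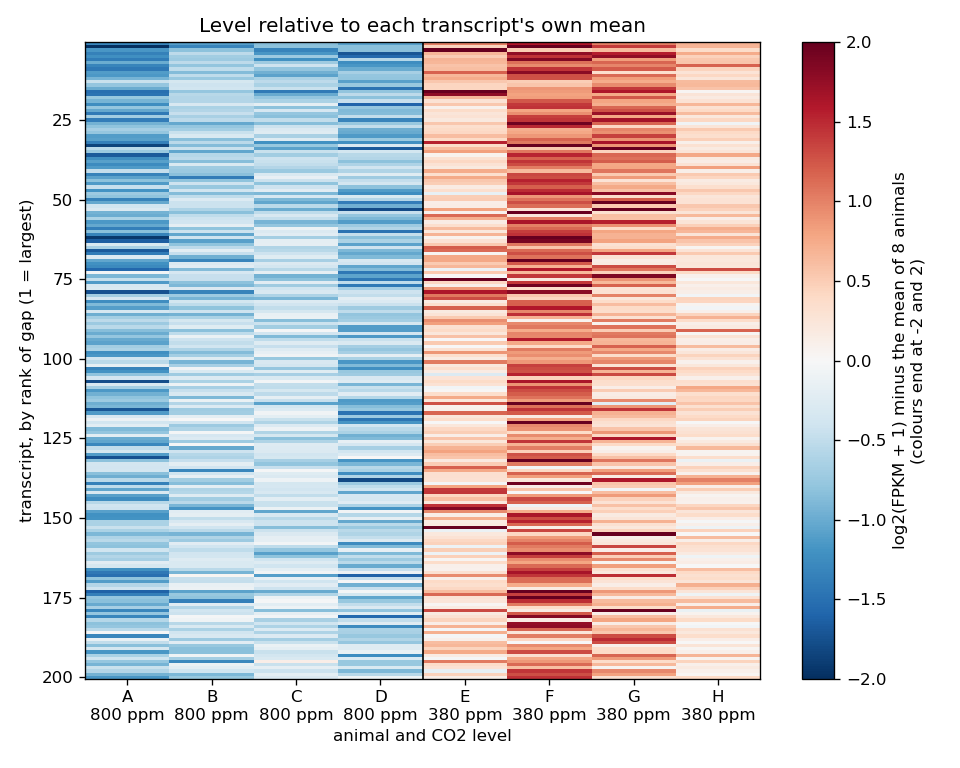
Rows are the 200 transcripts ordered by gap from the widest at the top, columns are the 8 animals, and colour gives log2(FPKM + 1) minus the transcript's own mean, blue below and red above it. The rule requires every value in A to D to lie below every value in E to H. It does not set which 380 ppm animal is the reddest, but it can favour some. The reddest was F in 127 of the 200 transcripts and H in 4.

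The widest gap belonged to GAWL01009441. Its levels were 1.10, 1.42, 1.87 and 1.45 FPKM in A to D, and 9.42, 14.8, 9.43 and 7.39 FPKM in E to H. Both groups were tight, with means of 1.46 ± 0.316 FPKM (SD, n = 4) and 10.3 ± 3.17 FPKM (SD, n = 4), and the gap of 1.55 lay between C and H. GAWL01000955, with the next widest gap of 1.26, stood at 1.67, 4.32, 6.56 and 6.47 FPKM in A to D, and at 17.1, 89.3, 34.2 and 20.4 FPKM in E to H. Its spread at 380 ppm was wide, at 40.2 ± 33.5 FPKM (SD, n = 4), because F was far above the other 3. GAWL01027249, with a gap of 1.19, stood at 2.12, 2.96, 1.80 and 2.94 FPKM in A to D, and at 43.3, 8.98, 9.93 and 8.03 FPKM in E to H. Here E and not F was the high animal, and the other 3 at 380 ppm lay within 2 FPKM of each other.

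The other 4 transcripts with a gap of at least 1 came next in rank. GAWL01022313 stood at 0.96, 2.48, 1.25 and 0.54 FPKM in A to D and at 6.93, 16.3, 13.9 and 7.40 FPKM in E to H. In it F and G were well above E and H. GAWL01030848 stood at 1.56, 2.7, 2.6 and 1.03 FPKM in A to D and at 7.53, 15.3, 19.3 and 7.24 FPKM in E to H, with the same split at 380 ppm and with G as the highest animal. GAWL01022415 stood at 0.41, 1.23, 0.61 and 1.49 FPKM in A to D and at 4.94, 12.4, 5.59 and 4.38 FPKM in E to H, where F alone was high. GAWL01042283 stood at 1.37, 2.30, 1.89 and 0.99 FPKM in A to D and at 6.48, 9.10, 9.63 and 5.94 FPKM in E to H, and its groups were about equally tight on the log2 scale, with SDs of 0.32 and 0.31 (n = 4 each). The remaining 3 of the widest 10, GAWL01019304, GAWL01005418 and GAWL01045035, had gaps of 0.98, 0.95 and 0.93. Their group means were 3.37 ± 1.26 and 14.4 ± 2.62 FPKM, 5.12 ± 1.6 and 21.5 ± 7.40 FPKM, and 0.753 ± 0.235 and 5.72 ± 3.52 FPKM (SD, n = 4 each, 800 ppm first). GAWL01019304 was the one among the 10 with its highest value in H, at 17.3 FPKM.

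**Figure D3:**
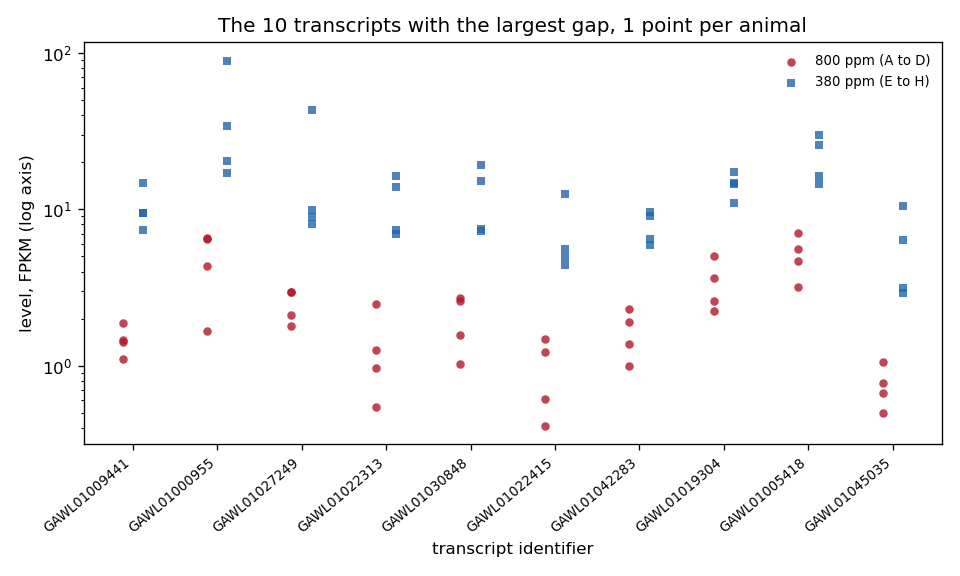
The 10 transcripts with the widest gap are on the x axis and their level in FPKM on a logarithmic y axis, with 1 circle for each 800 ppm animal and 1 square for each 380 ppm animal. The single squares far above the others are F in GAWL01000955, at 89.3 FPKM, and E in GAWL01027249, at 43.3 FPKM.

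The most abundant members had narrower gaps. GAWL01024987 stood at 28.1, 61.3, 56.2 and 62.0 FPKM in A to D, and at 96.1, 266, 204 and 157 FPKM in E to H, with a gap of 0.62. A was low among the 800 ppm animals and E among the 380 ppm animals. GAWL01018792 stood at 21.7, 41.3, 43.3 and 29.8 FPKM in A to D and at 57.3, 125, 82.4 and 67.4 FPKM in E to H, and its gap of 0.40 lay between C and E. GAWL01025785, GAWL01040574 and GAWL01020298 had means at 380 ppm of 103 ± 27.8, 103 ± 54.4 and 94.0 ± 52.8 FPKM and at 800 ppm of 51.0 ± 12.6, 39.9 ± 17.4 and 37.3 ± 15.9 FPKM (SD, n = 4 each). F was the highest animal in each of these 5 transcripts.

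The 3 steadiest members, by the larger of the SDs of log2(FPKM + 1) in the 2 groups, were low ones. GAWL01009330 stood at 0.93, 1.04, 1 and 0.98 FPKM in A to D, and at 2.01, 2.40, 2.33 and 1.67 FPKM in E to H. The 4 animals at 800 ppm lay closer together than the typical worth of 1 fragment of a low transcript in C, 0.119 FPKM. GAWL01007145 stood at 0.34, 0.73, 0.49 and 0.36 FPKM in A to D and at 2.10, 2.37, 3.45 and 2.62 FPKM in E to H. GAWL01016709 stood at 0.56, 0.92, 0.55 and 0.50 FPKM in A to D and at 1.76, 1.32, 1.67 and 1.86 FPKM in E to H, and here F was the lowest of the 380 ppm animals. The within-group SD pooled over both groups had a median of 0.45 over the members and 0.80 over all kept transcripts, a difference that the rule favours.

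At the edge of the list the values passed smoothly. The last member, GAWL01011376, stood at 1.70, 2.59, 3.98 and 4.70 FPKM in A to D and at 5.70, 15.7, 6.59 and 6.97 FPKM in E to H, with a gap of 0.2332. The next transcript, GAWL01019591, stood at 1.82, 1.64, 2.88 and 1.99 FPKM in A to D and at 6.13, 9.22, 6.34 and 3.56 FPKM in E to H, and its gap of 0.2330 left it out. The 306 transcripts that met the rule with a narrower gap had a median gap of 0.09 and a median log2 difference of 0.94.

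The edges of the gap were set mostly by H and E on the 380 ppm side and by C and B on the 800 ppm side. The lowest 380 ppm value was in H for 96 members (48%), in E for 68 (34%), in G for 23 and in F for 13. Over all kept transcripts it was in H for 15.3% and in E for 41.0%. H was thus the lowest more often among the members, and E less often. The highest 800 ppm value was in C for 79 members (39.5%), in B for 71 (35.5%), in D for 35 and in A for 15. Over all kept transcripts it was in C for 24.2% and in B for 27.3%. The pair that bounded the gap was B and H in 37 members, C and H in 31, C and E in 30 and B and E in 24. Measured in typical fragments of the coarser of the 2 bounding libraries, the gap had a median of 7.78 fragments, was under 3 fragments for 20 members and under 1 fragment for 0. The lengths of the members are not given, so this is a guide for low transcripts and no bound.

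Within the groups the members varied in a shared order. The rule did not ask for this order, but it used the same values and can favour it. Among the 380 ppm animals F was the highest in 127 members (63.5%), G in 47 (23.5%), E in 22 (11.0%) and H in 4 (2%). Over all kept transcripts these shares were 26.9%, 27.7%, 27.9% and 17.4%. Among the 800 ppm animals A was the lowest in 105 members (52.5%), D in 63 (31.5%), B in 22 (11.0%) and C in 10 (5%), beside 19.7%, 44.7%, 25.5% and 10.1% over all kept transcripts. In 79 members A was the lowest and F the highest of the 8 animals. H lay below F in 179 members and below G in 154, and A lay below B in 158 and below C in 158. The corresponding shares were 89.5%, 77.0%, 79.0% and 79.0%, beside 51.2%, 51.2%, 49.2% and 52.9% over all kept transcripts.

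**Figure D4:**
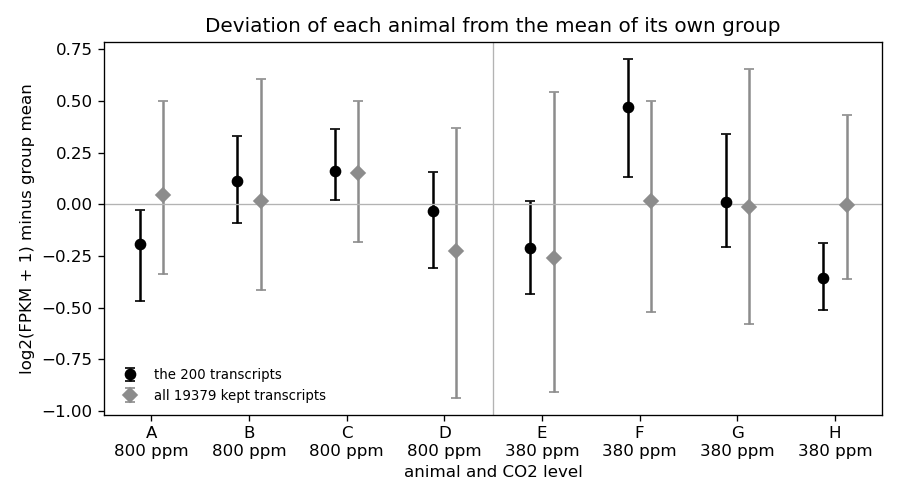
For each animal, the y axis gives log2(FPKM + 1) minus the mean of the animal's own CO2 group, as the median (point) and quartiles (bars) over the 200 transcripts in black and over all kept transcripts in grey. F lay above its group in the 200 transcripts, with a median of 0.47, and H and A below theirs, with medians of -0.36 and -0.19, while the medians over all kept transcripts were 0.016, -0.0038 and 0.043.

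After the mean of each CO2 group was subtracted, the median member deviated from its group by 0.47 in F and by -0.36 in H. Over all kept transcripts these deviations were 0.016 and -0.0038. The deviation of A was -0.19 over the members and 0.043 over all kept transcripts. In C and E the members followed the bulk of transcripts, with deviations of 0.16 and -0.21 beside 0.15 and -0.26. The median correlation between pairs of members, over the 8 animals about the group means, was 0.385 (19900 pairs), beside 0.027 over all pairs of kept transcripts and 0.272 over the 306 transcripts with narrower gaps. A correlation above 0.5 was found in 39.8% of member pairs and in 21.0% of all pairs. These correlations rest on 8 libraries shared by all pairs, which also chose the members, and are a description. The median was 0.509 without D and E and 0.251 without F.

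A single component carried 47.4% of the within-group variance of the members, with its largest weight on F (0.72) and opposite weights on E (-0.41), H (-0.37) and A (-0.34). The next carried 20.1% and was led by G (0.70). The members' median profile about the group means was taken over the same 200 members, which favours positive correlations with it. The correlation with this profile was positive for 177 members and above 0.5 for 143. It was highest for GAWL01014700 (0.968), GAWL01009441 (0.949) and GAWL01017891 (0.947). GAWL01014700 stood at 2.28, 3.27, 3.63 and 3.5 FPKM in A to D and at 6.60, 12.8, 8.23 and 5.27 FPKM in E to H, which is the order A lowest, H below E and F highest. Members against this order included GAWL01027249, with a correlation of -0.274, and GAWL01016709, with -0.444.

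Members tended to have members as neighbours in identifier number. Of the 200, 170 had a kept transcript whose number differed by 1, and 22 of these were next to another member, in 11 separate pairs with no longer run. Of 259 neighbouring positions, 8.49% held a member, while members made up 1.03% of all kept transcripts. Whether adjacent identifiers are pieces or variants of 1 gene is not given in the sources used here, so whether neighbouring members are independent was not tested. GAWL01007144, next to GAWL01007145, stood at 0.47, 0.66, 0.18 and 0.33 FPKM in A to D and at 3.05, 1.23, 3.34 and 1.73 FPKM in E to H. Its level was similar to that of its neighbour, but within the groups their correlation was 0.379. The closest pair, chosen after its values were seen, was GAWL01008850 and GAWL01008851, with a correlation of 0.922. The former stood at 0.51, 1.35, 1.06 and 1.51 FPKM in A to D and at 2.77, 5.84, 2.26 and 2.71 FPKM in E to H, and the latter at 0.46, 1.36, 1.27 and 1.94 FPKM and at 4.53, 7.23, 2.96 and 2.64 FPKM.

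Over the 11 adjacent member pairs the median correlation about the group means was 0.493, beside 0.385 over all pairs of members. It was 0.191 over 11231 adjacent pairs of kept transcripts and 0.203 between members and their neighbours that were not members. Of the 234 neighbours that were not members, 14 (5.98%) met the rule with a narrower gap, beside 1.6% of all kept transcripts that were not members. Their median log2 difference between the group means was 0.31 in favour of 380 ppm, beside 0.10 over all kept transcripts, and 162 of them (69.2%) had the higher mean at 380 ppm, beside 57.0% of all kept transcripts. The correlations of the 11 pairs ran from 0.046 to 0.922, and the lowest were 0.046 for GAWL01017328 and GAWL01017329 and 0.125 for GAWL01021289 and GAWL01021290. In 3 pairs, all chosen after their values were seen, the neighbours differed several-fold in level. GAWL01017329 was a median of 0.142 times as high in FPKM as GAWL01017328. GAWL01025652 stood at 11.2, 19.6, 13.1 and 11.4 FPKM in A to D and at 28.8, 82.2, 78.0 and 31.1 FPKM in E to H, and GAWL01025653 at 1.04, 2.64, 1.28 and 1.25 FPKM and at 14.2, 9.94, 15.5 and 4.64 FPKM. GAWL01023228 and GAWL01023229 had a correlation of 0.860, and the latter was a median of 7.72 times as high in FPKM, which depends on lengths that are not given.

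Animals that took no part in choosing a list gave a check that the rule had not used. Each of the 16 pairs of 1 animal at 800 ppm and 1 at 380 ppm was held out in turn, the same rule was applied to the other 6 animals, and the log2 difference of the held-out pair (380 minus 800 ppm) was taken over the 200 transcripts so chosen. The median over the list exceeded the median over all kept transcripts in 15 of the 16 pairs, by a median of 0.49. The excess ran from 1.64 for A and F down to -0.65 for B and E, the pair in which it was negative. Pairs with F held out gave 1.64 with A, 0.77 with B, 1.19 with C and 1.22 with D. Those with G held out gave 1.13, 1.09, 0.42 and 0.32, and those with H 0.69, 0.25, 0.34 and 0.11. Those with E gave 0.57, -0.65, 0.20 and 0.06. Their median of 0.13 was the lowest for any held-out animal, and the cause was not tested. The pairs share animals, and no p-value is given for them.

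**Figure D5:**
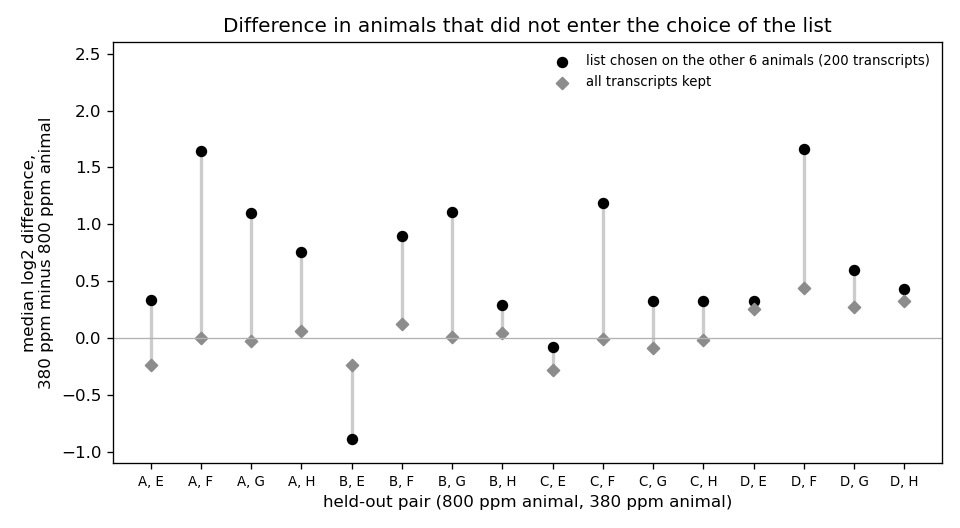
For each held-out pair, the black point is the median log2 difference (380 ppm animal minus 800 ppm animal, on log2(FPKM + 1)) over the 200 transcripts chosen on the other 6 animals, and the grey diamond the same median over all kept transcripts. The black point is above the diamond in 15 of 16 pairs, by the most with A and F held out and below it with B and E held out.

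The held-out difference depended on a few animals. With 1 animal removed from every step, its median over 12 pairs was 0.06 without F (8 pairs above), 0.06 without G (7 pairs above) and 0.14 without A (11 pairs above). It was between 0.56 and 0.94 without any 1 of the other 5, and 1.01 without both D and E (8 of 9 pairs above). With libraries rescaled to the same sum, it was 0.11, with 9 of 16 pairs above. Lists chosen by the mirrored rule, with higher values at 800 ppm, had a median excess of -0.02 and lay on their own side in 9 of the 16 pairs, beside 15 for lists with lower values. By held-out animal, the mirrored lists did so in 0 of 4 pairs with E, 1 of 4 with D and 2 to 4 of 4 with each other animal. For lists with lower values it was 3 of 4 with E, 3 of 4 with B and 4 of 4 with each other animal. The mirrored lists were not run without D and E. The difference between the directions was not tested. Of the transcripts in the lists chosen without a pair, between 34 and 151 of 200 were also among the 200 described here, fewest without B and E and most without A and F.

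In the test over the whole table, limma with Benjamini-Hochberg adjustment over 19379 transcripts called 0 (0%) at the 0.05 threshold, and no adjusted p, of a member or of any other transcript, was below 0.997. Before adjustment, 172 of the 200 members had a p under 0.05, where 517 (2.67%) of all kept transcripts did so with lower values at 800 ppm. These p-values describe the separation that chose the members and are no evidence for it. Of the 200 transcripts with lower values that had the smallest p, 125 were members.

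The separation also depended on how the libraries were scaled. Under the authors' scaling the summed FPKM of the members was 523, 787, 902 and 761 in A to D, and 1943, 3326, 2316 and 1674 in E to H. As a share of all summed FPKM it was 0.0571%, 0.119%, 0.0942% and 0.0483% in A to D, and 0.0882%, 0.471%, 0.514% and 0.135% in E to H. On this share E lay below B and C, and the groups overlapped. With every library rescaled to the same sum 39 of the 200 still separated the groups, and with every library rescaled to the same median of kept transcripts 149 did.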

How the data were processed

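Whole-body RNA of 8 animals (4 per CO2 level, as their titles say) was sequenced in paired ends on 2 lanes, per the labels' protocols. The deposited table holds TMM-normalized FPKM made by the authors, as its name says, with 2 decimals and a column for each animal. Trimmomatic, Bowtie and edgeR appear in the submitters' processing notes with no version or role, and neither quantifier nor assembly is given in the sources used here. All 8 columns matched 1 sample each. Total reads are not given, so depth was read only as relative fragments per unit of FPKM: over 300 low transcripts, 96.5% of values fell within 0.1 of a whole fragment, each transcript's own step being fitted. Fitting the step raises this share, and the share for values without steps was not computed.

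The members and lists were chosen with earlier results of these data known. Values were analysed as log2(FPKM + 1), which understates changes of low transcripts, with Python 3.11.15, numpy 2.4.6 and pandas 2.3.3. The whole-table test was limma 3.58.1 (R 4.3.3) with an intensity trend, Benjamini-Hochberg adjustment and a threshold of 0.05. The limma and held-out steps were tried on simulated data with known drops. The simulated noise was independent between transcripts, unlike that of the members, so this trial does not show how the steps behave under shared variation. Named are the 10 widest gaps, the 5 highest means, both transcripts at the edge of the list, the lowest-numbered longest run of identifiers, members under 0.5 FPKM at 800 ppm, the 3 steadiest (by the larger of the groups' SDs) and the 3 nearest the median profile. Animal letters pair nothing, and the animals being separate, the spread within a group holds biological and technical variation.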

Additional observations from a re-analysis of the deposited data

Results flagged for a closer look

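In groups of 4 animals, a value was singled out when its distance to the nearest other animal made up most of the group's range on the log2 scale, which chance does for about 1 in 20 groups. GAWL01027249 was far higher in E, at 43.28 FPKM, than in the other 380 ppm animals. F was far above the other 3 in GAWL01040574, at 184.22 FPKM, and in GAWL01020298, at 172.96 FPKM. A was far below the other 800 ppm animals in GAWL01024987, at 28.09 FPKM, and in GAWL01017891, at 5.68 FPKM. B was singled out at 800 ppm in GAWL01016709, at 0.92 FPKM beside 0.56, 0.55 and 0.50 FPKM in A, C and D. All of these are low values, and the difference is small in FPKM. The share of kept transcripts listed at 0 was far higher in D, at 14.041%, than in A, B and C. Over the members, such an animal was found in 16 of the 200 at 380 ppm (8%) and in 6 at 800 ppm (3%), beside 6.65% and 9.32% of all kept transcripts. In 13 of the 16 it was a high value in F (6.50% of members, beside 0.676% of all kept transcripts).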

How the results depend on the processing

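The list depended on the scaling and on which animals were included, and a higher minimum level shortened it. The cause was not tested except where stated. The count of separating transcripts, 506 of 19379 kept, was 86 with libraries rescaled to the same sum. It was 186 with the same sum after removing the 10 most abundant transcripts of each. At a minimum mean of 5 FPKM it was 199 of 8331 kept, and, as fewer animals must separate, 1802 without D and E. The opposite count, 191, was then 252, 219, 40 and 1338, so that it exceeded the count with lower values under the first 2; rescaled to the same median the counts were 356 and 248. Of the 200 members, 39, 128 and 86 still met the rule under the first 3, where fewer than 200 transcripts met it in all. The 86 were all the members that reached the higher minimum. With the same median and without D and E, 130 and 57 members were among the 200 widest gaps. With 1 animal left out, fewer animals must separate, and the count ran from 532 to 1405. The members kept among the 200 widest gaps ran from 65 without E to 178. They were 107 without H and 117 without B or C. The median gap of the members, 0.40, was -0.38 with the same sum. It was 0.411 to 0.517 with 1 animal left out, a step that can only keep or widen a gap. The co-variation, 0.385, ran from 0.251 (without F) to 0.461 with 1 animal left out. The held-out excess then ran from 0.0568 (without G) to 0.938 (without E). Without both D and E the co-variation was 0.509 and the held-out excess 1.01. With identifiers up to 5 apart, 34 members had a member nearby. The limma count stayed at 0 in its 14 alternatives, with smallest adjusted p from 0.239 (without D) to 1. The 24 named transcripts kept a higher mean at 380 ppm in each of 12 alternatives. Since all 24 met the rule, only the rescalings among these could have reversed it. Of the 24, 18 overlapped between groups with the same sum and 6 with the same median. Leaving out D and E, the rescaled, mirrored and animal-removed held-out lists were chosen after seeing the data. No paired analysis was possible because the animals carry letters that are not shared between groups. Few fragments limit low members most, in D and E above all.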
